A study of Homo sapiens with 96 samples.

Results

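Ribosome footprints of wild-type U2-OS cells were compared between the last and the first hours of a sampled circadian day. U2-OS is a human osteosarcoma line, and the cells used carried luciferase under the Per2 promoter. The late window held CT18, CT20 and CT22 and the early window held CT00, CT02 and CT04, where CT is the circadian time label in hours, with 2 replicate libraries per time. The comparison therefore set 6 late libraries against 6 early ones, out of 24 wild-type footprint libraries and 96 libraries in the whole series. All cells were synchronised with 0.1 µM dexamethasone, a glucocorticoid, in medium with luciferin. The first plates were taken 24.5 h after synchronisation, and later ones at intervals of 2 h, after 3 min in 100 µg/mL cycloheximide at 80% confluence. No siRNA was given to the wild-type cells, which were plated at 2250000 cells a dish. Total RNA of the same wild-type times and footprints of cells given 120 pmol of a siRNA mixture against Bmal1, plated at 560000 cells a dish, were used for comparison. The labels name no control siRNA, do not say that replicates were separate cultures, and follow each cell state for a single day. The p-values therefore measure the spread between these libraries, which may be technical. That spread takes in differences between the times of a window and, with no replicate number in the main model, between replicates. A drift over hours cannot be told apart from the ends of a 24 h wave or from more time in culture.

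Ribosome profiling counts the short stretches of mRNA that a ribosome covers and protects from nuclease, so a gene's footprint level follows both how much of its mRNA there is and how many ribosomes sit on it. Synthesis of ribosomes is controlled in growing cells in part through mRNAs that begin with a terminal oligopyrimidine (TOP) tract, a C at the first base followed by a run of C and T. These TOP mRNAs encode ribosomal proteins and elongation factors, and their translation follows growth signalling through mTOR and the binding protein LARP1. The circadian clock itself runs on the activators CLOCK and BMAL1 (ARNTL), their repressors PER and CRY, and a second loop of REV-ERB and ROR receptors.

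The late libraries held 2790976 to 5822458 recovered gene reads and the early ones 2954512 to 5085239 reads, with 13480 to 14074 genes detected late and 12851 to 13648 early. The library of CT02 replicate 2 stood apart in principal components 1 and 3 and had the fewest genes detected, so counts it moved are given with and without it, a choice made after seeing the data. Summed levels of 12 osteoblast markers were 5250 to 6330 CPM (read counts scaled to a common library total) late and 3910 to 5030 CPM early, with no read for SP7. Of other lineages, 7 epithelial genes summed to 15.0 to 27.2 CPM late and 3.64 to 14.1 CPM early, with no read for KRT20. The 8 neuronal genes summed to 366 to 407 CPM late and 375 to 471 CPM early, and 8 blood cell genes to 3.76 to 6.68 CPM late and 7.08 to 10.7 CPM early with no read for HBB and HBA1. Mean levels were below 1 CPM for 3 osteoblast, 5 epithelial, 5 neuronal and 7 blood cell genes. The epithelial, neuronal and blood sums therefore rest on few genes. The sums moved with the windows for the osteoblast, epithelial and blood lists, and their part in the results was not tested.

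Of 11480 genes with enough reads, 2122 (18.5%) differed between the late and the early window at an adjusted p below 0.05 in limma's moderated test with Benjamini-Hochberg adjustment over all 11480. Late levels were higher for 1148 genes (10%) and lower for 974 (8.48%). Changes upward reached further: 147 of the higher genes and 19 of the lower ones differed by a log2 value of at least 1. The 6 late libraries lay wholly above the 6 early ones for 554 genes (4.83% of those tested) and wholly below for 414 (3.61%). Without CT02 replicate 2 the test called 2185 genes, and with the replicate number in the model, 2762. The authors' own library scaling gave 2317 calls, of which 41.1% were higher late, against 54.1% here, and it moved the median of all genes to -0.04 on the log2 scale, against 0.00 here. Calls fell to 1031 without replicate 1, and to 1371, 1214 and 1081 when CT18, CT20 or CT22 was left out.

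The gene with the largest rise among well-covered genes was CXCL14, a secreted chemokine. Its late footprints were 26.0 CPM in the lowest library, 53.1 CPM at the median and 125 CPM in the highest, against 5.65, 9.77 and 11.4 CPM early. No late library overlapped an early one, although the rise was larger in replicate 1 than in replicate 2 (2.94 against 1.94 on the log2 scale), and over both it was 2.44 ± 0.36 (SE, adjusted p = 0.000616). ASS1, the urea cycle enzyme that joins citrulline to aspartate, had 100 to 149 CPM late with a median of 111.5 CPM, and 24.6 to 46.0 CPM early with a median of 32.55 CPM. Its log2 difference was 1.78 ± 0.15 (adjusted p = 3.89e-07). IGFBP5, which binds insulin-like growth factors outside the cell, had 47.3, 50.0 and 60.6 CPM (lowest, median and highest) late and 8.93, 16.3 and 17.7 CPM early, a log2 difference of 1.75 ± 0.14 (adjusted p = 2.86e-08). Late and early libraries were separated for both genes, and their window means were in order through the day in each replicate.

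BHLHE41, a repressor that feeds back on the clock, rose by 1.95 ± 0.36 (adjusted p = 0.00273) on the log2 scale, with 35.5, 39.2 and 47.1 CPM late against 5.29, 10.0 and 27.9 CPM early. Its early libraries were spread over a wide range, and the difference was 1.27 in replicate 1 and 2.62 in replicate 2. The prostaglandin transporter SLCO2A1 had 13.2 to 21.3 CPM late and 3.21 to 6.21 CPM early, a log2 difference of 1.82. GABRA2, a subunit of the GABA-A receptor, had a median of 15.7 CPM late and 5.63 CPM early, a difference of 1.58. The transcription cofactor LBH, the corepressor HR, the extracellular proteins ADAMTSL4 and PODNL1, the collagen chain COL9A2 and PHLDA1 completed the 12 largest rises, with log2 differences from 1.48 (COL9A2) to 1.73 (ADAMTSL4). None of these 12 genes overlapped between windows.

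**Figure D1:**
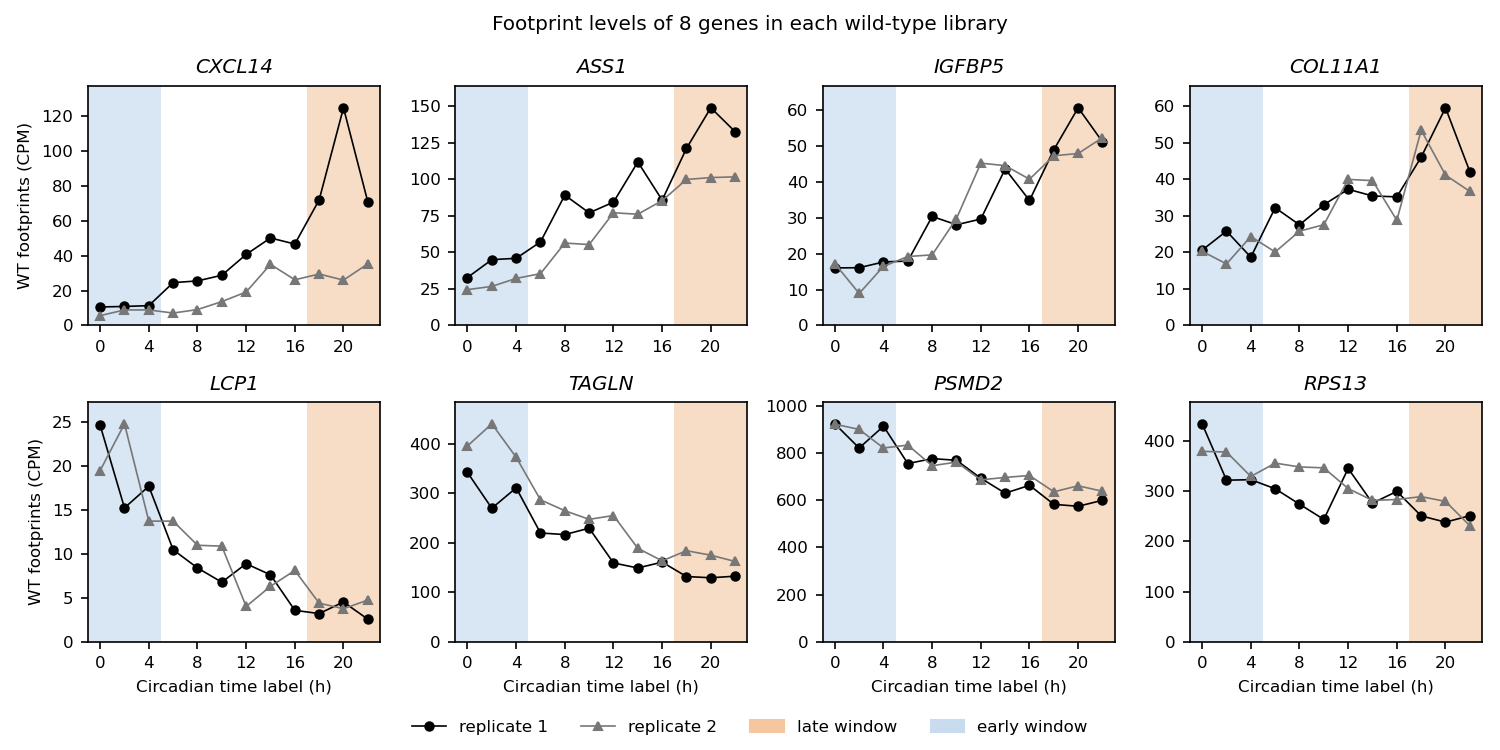
Footprint levels (CPM, vertical axes starting at 0) of 8 genes in each wild-type footprint library against the circadian time label in hours; circles are replicate 1, triangles replicate 2, and the late and early windows are shaded. CXCL14, ASS1, IGFBP5 and COL11A1 are higher in the 6 late libraries than in the 6 early ones, LCP1, TAGLN, PSMD2 and RPS13 are lower, and the 12 libraries between lie mostly between the ends.

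LCP1, the actin bundling protein L-plastin, had the largest fall among well-covered genes. Its late footprints were 2.55, 4.06 and 4.73 CPM (lowest, median and highest), against 13.7, 18.6 and 24.8 CPM early, a log2 difference of -2.24 ± 0.20 (adjusted p = 6.52e-08). TAGLN, the smooth muscle actin binder transgelin, was the most abundant of the 12 largest falls, with 129, 147 and 184 CPM late against 269.5, 357 and 440 CPM early and a difference of -1.22 ± 0.12 (adjusted p = 2.38e-06). Neither gene overlapped between windows, and TAGLN differed by -1.22 in replicate 1 and -1.21 in replicate 2. The gelatinase MMP9 had a median of 9.93 CPM late and 21.2 CPM early, the AP-1 subunit FOSL1 had 16.3 CPM late and 35.6 CPM early, and the bone matrix protein SPP1 (osteopontin) had 22.4 CPM late and 42.4 CPM early. MMP9 and FOSL1 did not overlap between windows and SPP1 did. The other falls in this group were LPXN (-1.44), a paxillin relative, the serpin SERPINB7 (-1.26), CCDC147 (-1.23), the fetal plasma protein AFP (-1.12), the oxidative stress gene OSGIN1 (-1.10), the synaptotagmin-like SYTL3 (-1.08) and the kinase DCLK1 (-0.91).

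Genes of the translation machinery were lower late. All 44 called cytosolic ribosomal protein genes of 67 tested were lower, with a list median of -0.30 on the log2 scale, against 0.00 for all genes and 8.48% of all genes called lower. RPL27 had 588, 618.5 and 645 CPM late and 775, 813 and 889 CPM early (-0.42 ± 0.05, adjusted p = 5.41e-06), and RPS13 had 231.5, 251 and 289.5 CPM late and 322, 354 and 435 CPM early (-0.49 ± 0.08, adjusted p = 8.6e-05). Of the 67, 11 did not overlap between windows, against 3.61% of all genes wholly below. Called and in order through the day in both replicates were 14, against 4.93% of all genes in either direction. Without CT02 replicate 2, 36 of 68 were called lower with a median of -0.27, and without replicate 2 as a whole 28 of 66. Other known TOP mRNAs and translation factors were lower in 17 of 21, in 11 without replicate 1 and in 7 without replicate 2. GNB2L1 (RACK1), a scaffold on the small subunit, had 1453, 1558 and 1704 CPM late and 1672, 2066 and 2201 CPM early, and EIF3E, an initiation factor subunit, had a median of 531 CPM late and 647 CPM early. The windows overlapped for GNB2L1 and not for EIF3E. Ribosomal protein genes and EEF1A1 have many near-identical copies in the genome, so the split of reads between copies is uncertain, and how such reads were counted is not given in the sources used here.

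Genes that assemble ribosomes in the nucleolus were lower in 18 of 28, with none higher and a median of -0.29, and in 11 without replicate 1. NOP56, a core protein of the small nucleolar particles that guide methylation of ribosomal RNA, had 210, 237 and 252 CPM late and 280, 306 and 317 CPM early. The helicase DDX21, the pseudouridine synthase DKC1 and the PeBoW subunit PES1 fell by 0.35, 0.33 and 0.32 on the log2 scale. Mitochondrial ribosomal proteins were lower in 16 of 76 with a median of -0.14, and 1 of 76 was called without replicate 1. Subunits of the respiratory chain, in the same organelle, had 3 higher and 4 lower of 75 and a median of -0.01. Aminoacyl-tRNA synthetases had 2 of 20 lower, KARS (-0.21) and RARS (-0.23), where 8.48% of all genes were called lower and 10% higher.

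Among the pathway lists, the proteasome had the highest share of calls. Of 30 subunits tested, 27 were lower and none higher, 21 did not overlap between windows, and 16 were called and in order through the day in both replicates. Among all genes tested, 8.48% were called lower, 3.61% lay wholly below, and 4.93% were called and in order in either direction. Without replicate 1, 16 were called. PSMD2, a scaffold of the regulatory particle, had 575, 618 and 662 CPM late and 822.5, 908 and 925 CPM early (-0.52 ± 0.05, adjusted p = 5.08e-07). PSMA5, an alpha ring subunit of the core, had 385, 398 and 427 CPM late and 542, 566 and 588 CPM early (-0.50 ± 0.05, adjusted p = 3.76e-07). PSMD11 and PSMD1, also of the regulatory particle, differed by -0.46 and -0.39. Every late library was below every early one for these 4 genes.

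Genes under the antioxidant regulator NRF2 were lower in 12 of 18 with a median of -0.35 and none higher. For this list and the next, the shares of all genes were 8.48% called lower and 10% higher. GCLM, the modifier subunit of the enzyme that makes the glutathione precursor, had 48.4, 58.1 and 71.9 CPM late and 79.0, 96.1 and 119 CPM early (-0.70 ± 0.11, adjusted p = 8.88e-05). GSR, which reduces glutathione, fell by 0.57, TXNRD1, which reduces thioredoxin, by 0.37 and the peroxiredoxin PRDX1 by 0.35. Heat shock proteins were lower in 6 of 14, among them HSPA8 (1285 CPM late and 1638 CPM early at the median) and HSP90AA1 (648 CPM late and 831 CPM early). The small heat shock protein HSPB1 went the other way, with 1606 to 1896 CPM late and 919 to 1382 CPM early and a log2 difference of 0.58 ± 0.08 (adjusted p = 4.78e-05).

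Replication genes were lower in 16 of 34 and genes of G2 and mitosis in 10 of 35, with medians of -0.21 and -0.26 and none higher. Among all genes tested 8.48% were called lower. MCM10, which helps to start replication forks, had 139 to 165 CPM late and 197 to 239 CPM early (-0.48 ± 0.07), CCNE1, the cyclin of S phase entry, had 75.2 to 98.4 CPM late and 110 to 151 CPM early (-0.52), and CDK1, the kinase of mitotic entry, had 476 to 596 CPM late and 600 to 881 CPM early (-0.40). The 3 genes did not overlap between windows. In all, 11 of the 34 replication genes did not overlap, but of the 35 genes of G2 and mitosis only CDK1 did not. Among all genes tested 3.61% lay wholly below. The count for the mitotic list was 24 without replicate 2, 16 without CT02 replicate 2 and 26 with the replicate number in the model. Replication-dependent histones, whose mRNAs exist mainly in S phase, had no call in 11, where 18.5% of all genes were called. Their median was 0.05, and -0.04 without replicate 1. In whole cultures, fewer cells of a kind and less of an mRNA per cell cannot be told apart.

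**Figure D2:**
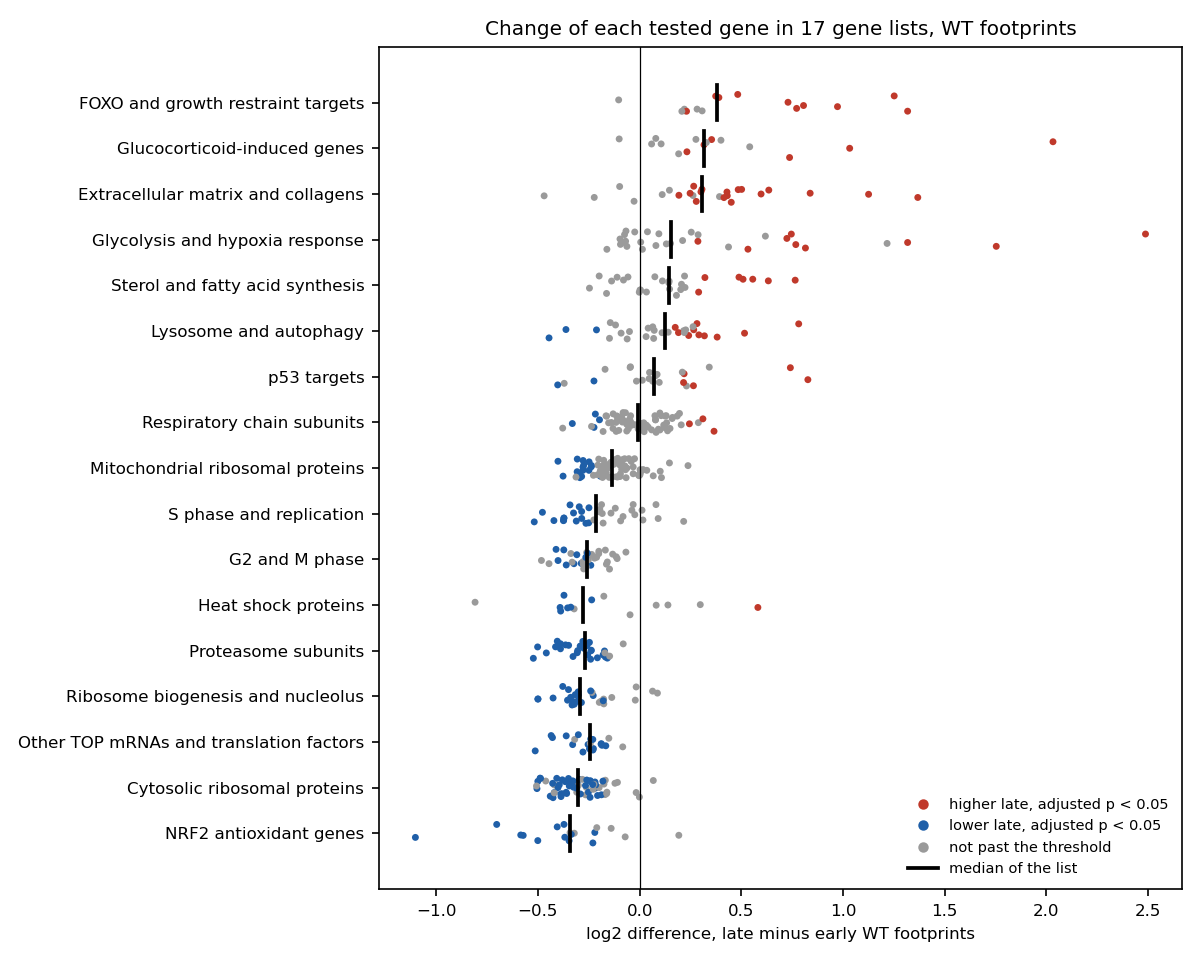
Log2 difference between the late and the early window in wild-type footprints for each tested gene of 17 gene lists; red points are genes called higher late, blue points genes called lower, grey points genes past no threshold, and black bars the list medians. Nearly all proteasome, ribosomal protein and nucleolar points lie left of 0, the called points of the matrix list lie right of 0, and respiratory chain subunits sit around 0.

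Among the same lists, extracellular matrix genes were the most often higher: 17 of 25 rose and none fell, with a median of 0.31, against 10% of all genes called higher. COL11A1, a chain of the fibril-nucleating collagen XI, had 36.7, 44.1 and 59.6 CPM late and 16.9, 20.5 and 25.85 CPM early (1.13 ± 0.13, adjusted p = 1.73e-06). COL5A2 had 142, 154 and 161 CPM late and 64.9, 84.7 and 102 CPM early (0.84 ± 0.09, adjusted p = 5.41e-07), and COL5A1 and the collagen crosslinking enzyme LOXL2 rose by 0.64 and 0.60. In total RNA 12 of the 25 rose and 1 fell, where 18% of all genes were called higher and 17.8% lower. The osteoblast marker sum, higher late as given above, was mostly that of SPARC (2647 CPM late and 2278 CPM early at the median) and COL1A1 (2821 CPM late and 2087 CPM early), which are also in the matrix list. Of the 9 osteoblast markers tested, 5 had positive and 4 negative differences, 3 rose and 1 fell, with a median of 0.25, and -0.02 without replicate 1. SPARC and RUNX2, the master regulator of bone formation (48.8 CPM late and 25.1 CPM early), rose without overlap, COL1A1 rose by 0.45 with windows that overlapped and was not called without CT02, and SPP1 fell.

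Targets of FOXO and other genes that restrain growth rose in 10 of 16, with a median of 0.38 and none lower, against 10% of all genes called higher. The ubiquitin ligase subunit FBXO32 (atrogin-1) had 14.5, 15.6 and 21.2 CPM late and 2.98, 6.88 and 13.8 CPM early (1.25 ± 0.24, adjusted p = 0.000948), and SESN3, which holds back mTOR complex 1, had 46.1, 51.0 and 70.4 CPM late and 22.9, 25.2 and 45.1 CPM early (0.97). The stress gene GADD45B rose by 0.73 and the repressor BCL6 by 0.39. All 4, and no others of the 16, were separated in the 12 libraries, where 4.83% of all genes lay wholly above. Genes induced by glucocorticoids, the class of the synchronising agent, rose in 6 of 15 with a median of 0.32, against the same 10%. The count was 3 without replicate 1 or with the authors' scaling. KLF9 had 43.6 to 51.5 CPM late and 24.5 to 33.1 CPM early (0.74 ± 0.09, adjusted p = 8.43e-06), and METTL7A had 13.1 CPM late and 6.34 CPM early at the median. The commonly used marker FKBP5 rose by 0.23 with windows that overlapped. ZBTB16 was rare, with 2.96 to 8.51 CPM late and 0.331 to 2.585 CPM early, where 3 reads correspond to 0.51 to 1.06 CPM late and 0.60 to 1.03 CPM early.

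Genes of glycolysis and the hypoxia response rose in 9 of 31 with a median of 0.15, where 10% of all genes were called higher and 8.48% lower. The glucose transporter SLC2A1 had 343, 382 and 444 CPM late and 208, 222 and 307 CPM early (0.72 ± 0.09, adjusted p = 9.38e-06), and the mitophagy receptor BNIP3L rose by 0.53. Sterol and fatty acid synthesis genes rose in 7 of 28 with a median of 0.14, and in 4 without replicate 1. SREBF2, a transcription factor of sterol synthesis, had 187 to 211 CPM late and 123 to 158 CPM early, the desaturase FADS2 307 to 356 CPM late and 208 to 259 CPM early, and the desaturase SCD 162 to 179 CPM late and 102 to 145 CPM early. These 3 genes did not overlap between windows. Lysosomal genes were mixed, with 10 higher (6 without replicate 1), among them GUSB (0.38) and PSAP (0.27), and 3 lower, among them GLA (-0.45), of 30. Of the amino acid stress genes under ATF4, 7 of 28 rose (3 without replicate 2), with the serine synthesis enzyme PHGDH at 484 to 562 CPM late and 371 to 449 CPM early, while the cystine transporter SLC7A11 fell by 0.41.

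Among all genes tested, 10% were called higher and 8.48% lower, and several counts of the next lists are near those shares. Targets of p53 had 5 higher, led by TP53INP1 (0.83) and BBC3 (0.74), and 2 lower of 22, with none higher without replicate 1. Endoplasmic reticulum chaperones had 3 higher and 1 lower of 19, YAP and TGF-beta targets 4 higher and 1 lower (TAGLN) of 21, immediate early genes 2 higher (8 without replicate 2) and 1 lower (FOSL1) of 16, interferon-stimulated genes 3 higher and 1 lower of 16 and NF-kB genes 1 higher of 12. Tubulins and actin genes had 5 higher (2 without replicate 1, 8 without replicate 2) and 4 lower of 26, and SR proteins 1 lower of 16. Within the tubulins the isotypes differed in direction: TUBA1A had 84.8, 94.8 and 113 CPM late and 43.5, 47.7 and 57.7 CPM early (0.99 ± 0.09, adjusted p = 8.25e-08), whereas TUBA1C fell by 0.30 and TUBB4B by 0.26. Tubulin genes are close in sequence, so reads between them may have been split or lost.

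Of the clock genes, 1 of 4 activators and 4 of 14 repressors and outputs were called between the windows, against 18.5% of all genes. Among activators, ARNTL, the mRNA of BMAL1, was higher late with 24.2, 27.3 and 28.0 CPM against 11.3, 17.3 and 28.1 CPM early (0.56 ± 0.17, adjusted p = 0.0222), with windows that overlapped. CLOCK (-0.23), ARNTL2 (-0.33) and NPAS2 (0.20) did not pass the threshold. Of 14 repressors and outputs, BHLHE41, BHLHE40 (0.34) and NFIL3 (0.32) rose and NR1D2, which encodes REV-ERB beta, fell by 0.51. PER1, PER2, PER3, CRY1, CRY2, NR1D1, DBP, TEF, WEE1 and RORA did not pass the threshold, with differences from -0.34 (TEF) to 0.57 (RORA). NR1D1 overlaps THRA on the other strand, and with no strand setting given their reads may be mixed. PER3 had 36.9, 38.5 and 45.6 CPM late and 23.4, 33.8 and 50.9 CPM early, with means of 74.8 CPM over CT06 to CT10 and 58.0 CPM over CT12 to CT16. ARNTL had means of 9.94 CPM over CT06 to CT10 and 19.5 CPM over CT12 to CT16. The median shift of the 14 from the early window was 0.26 at CT06 to CT10, 0.15 at CT12 to CT16 and -0.07 at CT18 to CT22.

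The 12 libraries between the windows, CT06 to CT16, were used to ask whether the changes ran through the day. A slope fitted to these libraries alone passed the threshold for 21 genes (0.183% of 11480), 13 rising (0.113%) and 8 falling (0.0697%), and for 153 with the replicate number in the model, while 980 genes had an unadjusted p below 0.05. Of the 1148 genes higher late, 89.7% had a positive slope in the libraries between, against 49.4% of all genes, and of the 974 lower late, 87.3% had a negative slope, against 50.6%. A slope over all 24 libraries called 2883 genes, and 791 with a 24 h wave in the same model.

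Steady genes were defined as those called between the windows whose 4 window means were in order in each replicate. There were 566 of them (4.93% of genes tested and 26.7% of those called), 321 rising and 245 falling. Of 9358 genes not called, 106 (1.13%) were in order in both replicates. The window means include the late and early libraries that made the call, so the higher share among called genes follows in part from the definition. In order of p in the libraries between, IGFBP5 came first among the steady risers, with means of 24.2 CPM at CT06 to CT10 and 39.75 CPM at CT12 to CT16. The next were TUBA1A, the oxysterol-binding protein OSBPL10 (0.81), the matrix protein EDIL3 (753 to 851 CPM late and 461 to 598 CPM early, 0.60 ± 0.06), LRRN1 (0.57), the chromatin cofactor ARID5B (0.72), C1orf198 (0.94) and the guidance cue SEMA3C (0.98). Steady fallers were led by RANGAP1, the GTPase activator of nuclear transport, with 300 to 331 CPM late and 371 to 447 CPM early (-0.39 ± 0.06) and means of 386 CPM and 330 CPM between. They went on with TAGLN, the mitochondrial cyclophilin PPIF (-0.52), MMP9, RPL28 (-0.40), the proteasome subunits PSMB7 (-0.35) and PSMD2, and GCLM. With means pooled over both replicates 1631 genes were in order.

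**Figure D3:**
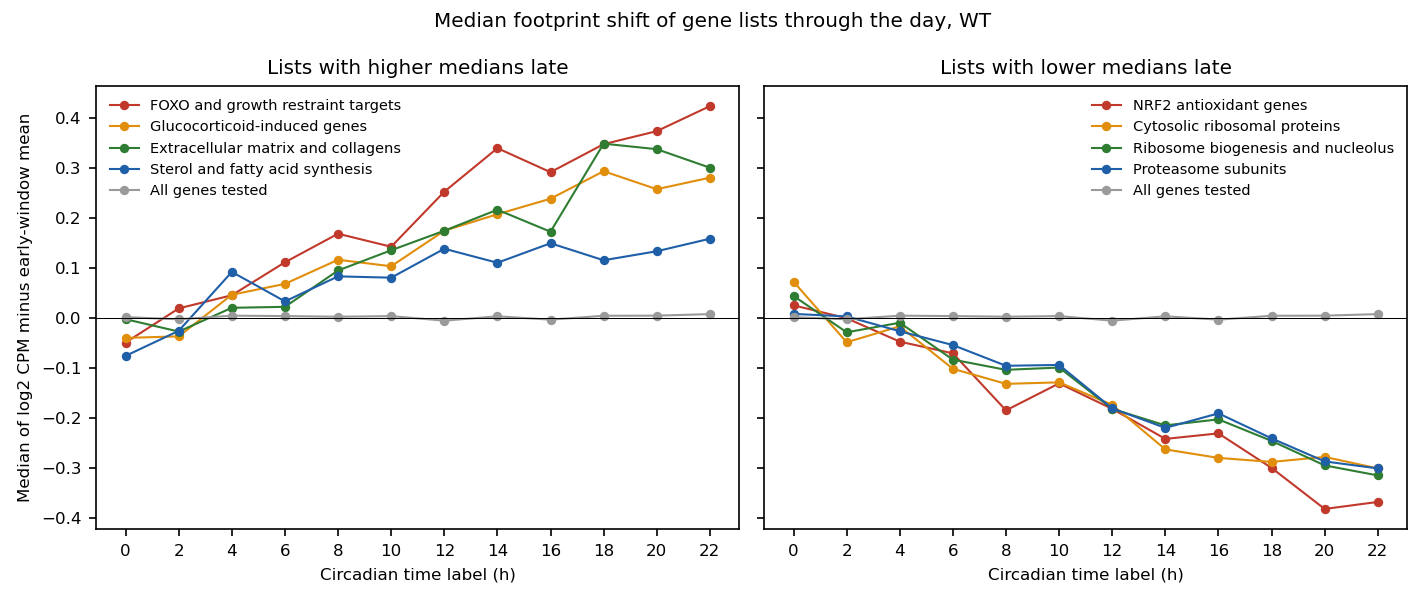
Median over the members of each gene list of the log2 footprint level minus the early-window mean, at each circadian time label in hours, over both replicates; grey points are all genes tested. The 4 lists at left end above 0 and the 4 at right below it, with medians at CT18 to CT22 of 0.38 for FOXO targets and -0.35 for NRF2 genes, while the median of all genes is 0.00 in that window.

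The medians of some lists ran in order from window to window. The ribosomal protein median was -0.12 at CT06 to CT10, -0.25 at CT12 to CT16 and -0.30 at CT18 to CT22, and that of the proteasome -0.08, -0.20 and -0.27 at the same times. The median of the FOXO list was 0.13, 0.27 and 0.38, and that of the matrix list 0.08, 0.19 and 0.31. Other medians did not run in order, among them those of p53 targets (0.05, 0.09 and 0.07), glycolysis (0.09, 0.08 and 0.15), ATF4 targets (0.06, 0.00 and 0.02), interferon-stimulated genes (0.06, 0.10 and 0.04) and osteoblast markers (0.17, 0.16 and 0.25). All these medians are relative to the same early libraries, so the values of a list at the 3 later windows are not independent of each other.

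Total RNA from the same times was then compared, to see whether footprints moved with the mRNA. In total RNA 4769 of 13326 genes (35.8%) differed between the windows. Of 2116 genes called in footprints and tested in both, 1698 were called in total RNA too (80.2% of the footprint calls and 38.6% of the RNA calls), 1668 in the same direction. The difference between footprint and RNA changes, called efficiency here, passed the threshold for 55 genes of 11421 (0.482%), 3 higher (0.0263%) and 52 lower (0.455%), and for 133 with the replicate number in the model. An unadjusted p below 0.05 was found for 828 genes.

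The 52 lower genes included 27 of 67 cytosolic ribosomal proteins, with a list median of -0.43 against 0.02 for all genes and 0.455% of all genes called lower, and 9 of the 21 other known TOP mRNAs and translation factors, with a median of -0.42. In total RNA, of 78 ribosomal proteins tested there 27 rose and 3 fell, with a median of 0.13, and of the 21 other genes 12 rose and none fell. RPS6, a small subunit protein that growth signalling phosphorylates, had 442, 488 and 588 CPM of footprints late and 588, 687 and 791 CPM early, while its total RNA was 1704 ± 116 CPM late and 1481 ± 92.4 CPM early (SD, n = 6 each). Its efficiency difference was -0.63 ± 0.10 (adjusted p = 0.000909). EEF1A1, the elongation factor that brings tRNA to the ribosome, had 69.8, 80.4 and 104 CPM of footprints late and 94.5, 116 and 152 CPM early, and 3302 ± 353.5 CPM of total RNA late and 2628 ± 333 CPM early, an efficiency difference of -0.85 ± 0.16 (adjusted p = 0.00795). In both genes footprints and RNA moved in opposite directions. RPL28 (-0.66), RPL5 (-0.70), RPL32 (-0.60), RPS13 (-0.62), GNB2L1 (-0.52) and EIF3E (-0.50) were also called lower.

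The starts of 6 genes called lower in efficiency are shown because the TOP tract lies at the first bases of the mRNA. Beside them stand 3 called genes without it. All 6 carry the tract, but RPL32, RPL27, RPL23, RPL6 and EEF1G, also called lower, lack it at their RefSeq starts. The lines shown are therefore no sample of the called genes, whose share with the tract is given below. Each line runs from 10 bases before the RefSeq gene start to the 20th base of the transcript on the gene's strand (GRCh38.p14), with a C at the start and the pyrimidines that follow it in capitals.
EEF1A1: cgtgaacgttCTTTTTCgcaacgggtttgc
RPS6: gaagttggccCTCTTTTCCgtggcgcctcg
RPL28: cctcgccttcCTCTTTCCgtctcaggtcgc
RPS13: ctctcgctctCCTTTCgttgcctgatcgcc
RPL11: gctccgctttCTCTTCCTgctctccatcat
GNB2L1: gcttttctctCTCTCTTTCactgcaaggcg
VIM: atcgtgatctgggaggcccacgtatggcgc
NAV2: cagcggccgcggctgagaagcgcgggccgg
PIK3R2: ggggcgggccaggccgctcggaaccgtggc
These windows lie at chr6:73521013-73521042 (EEF1A1, minus strand), chr9:19380217-19380246 (RPS6, minus), chr19:55385922-55385951 (RPL28, plus), chr11:17077648-17077677 (RPS13, minus), chr1:23691796-23691825 (RPL11, plus), chr5:181243887-181243916 (GNB2L1, minus), chr10:17228231-17228260 (VIM, plus), chr11:19345226-19345255 (NAV2, plus) and chr19:18153153-18153182 (PIK3R2, plus). VIM, the intermediate filament protein vimentin, fell in efficiency by 0.31 without the tract at this start, and the guidance protein NAV2 and the PI3-kinase subunit PIK3R2 are 2 of the 3 genes that rose in efficiency (0.48 and 0.45).

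A tract of a C at the start followed by at least 4 pyrimidines, searched on the gene's strand only, stood in 41 of 54 ribosomal protein genes with a RefSeq window (75.9%), in 12 of 15 genes of the other list (80.0%) and in 24 of 40 genes called lower in efficiency (60.0%). It stood in 715 of 9434 tested genes with a window (7.58%) and, among all 27305 RefSeq genes with a window, in 1404 (5.14%). RPL11 and NAV2 have more than 1 window, and for any such gene 1 window with the tract sufficed. Genes with the tract that are in neither list had a median efficiency difference of -0.01 and 7 of 662 called lower (1.06%), and those without it a median of 0.02 and 7 of 8703 called lower (0.0804%). Ribosomal protein mRNAs are known as TOP mRNAs and the other list takes in known ones, so the lists are not independent of the motif. The annotated start can differ from the one these cells use.

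Outside both lists, 16 genes were lower in efficiency. Among them were the nucleolar proteins GLTSCR2 and TAF1D, the initiation factor subunit EIF3M, the chaperonin subunit CCT8, the mitochondrial genes MRPS27, NOA1, OXA1L, PMPCB and SLC25A3, and the chromatin organiser SATB1. Proteasome subunits had no call in efficiency, with a median of -0.02, and 29 of 31 fell in total RNA. Replication genes and NRF2 genes likewise had no call in efficiency, with medians of 0.02 and -0.03. With 0.482% of all genes called, most lists of this size would have no call, so its absence is no result about them. Without CT02 replicate 2, 20 ribosomal protein genes and 9 of the other list were called lower in efficiency, and without replicate 2 as a whole 12 and 6. With the replicate number in the model the counts were 48 and 14.

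**Figure D4:**
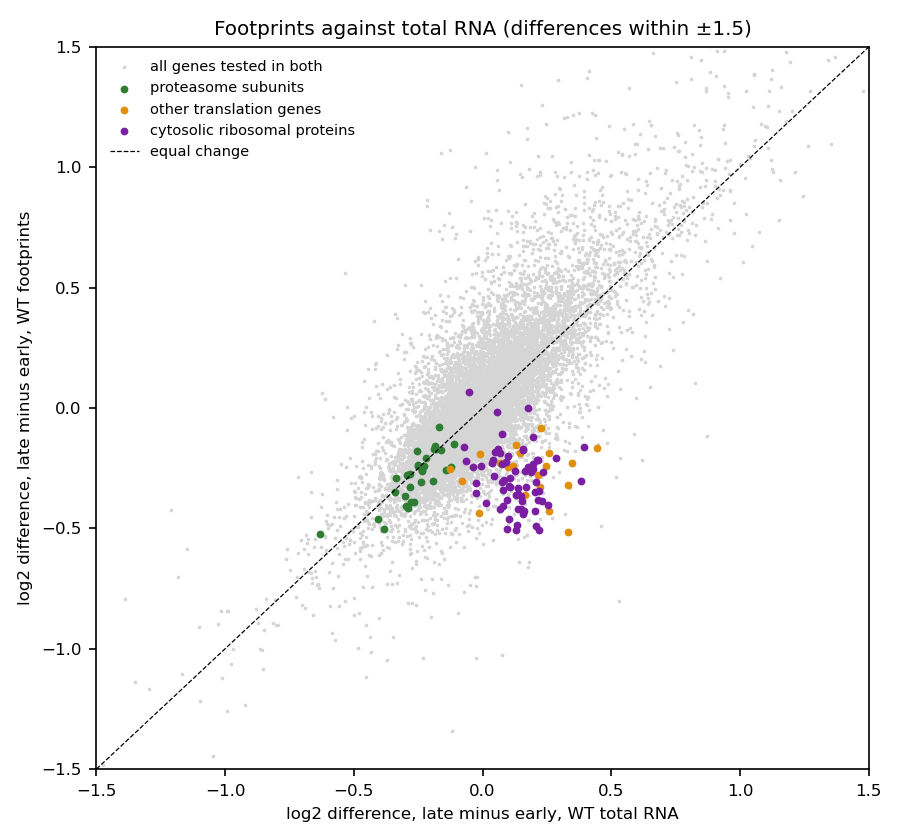
Log2 difference between the late and the early window in wild-type footprints (vertical) against that in wild-type total RNA (horizontal), for genes tested in both and within the axis limits; the dashed line marks equal change. Proteasome subunits (green) lie along the line, while cytosolic ribosomal proteins (purple) and other TOP mRNAs and translation factors (orange) lie mostly below it, with list medians of efficiency of -0.43 and -0.42.

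The same hours in Bmal1 knockdown cells gave 2313 called genes of 11309 (20.5%), 1131 higher (10%) and 1182 lower (10.5%), and 579 (242 higher and 337 lower) without replicate 1. ARNTL, the targeted gene, had 0.64 ± 0.20 CPM late and 0.41 ± 0.45 CPM early in knockdown footprints (SD, n = 6 each), against the wild-type levels above. Of 2069 genes called in wild-type footprints and tested in both, 838 were called in knockdown cells (40.5% of the wild-type and 36.7% of the knockdown calls), 813 in the same direction. The late minus early difference was itself unequal between wild-type and knockdown cells for 587 genes of 11132 (5.27%), 350 more positive (3.14%) and 237 more negative (2.13%) in wild type, and for 241 without replicate 1 and 314 without replicate 2. The siRNA, the lower seeding density and the loss of Bmal1 changed together and cannot be told apart.

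Ribosomal proteins were lower late in 44 of 67 in wild type, where 8.48% of all genes were lower. In knockdown cells 8 of 66 were higher, near the 10% of all genes, and none lower, with a median of 0.06. In the test between states 34 of 66 differed, all more negative in wild type, against 2.13% of all genes. Without CT02 replicate 2 that count was 25, and without replicate 1 or 2 of both states 24 and 12. RPL27 had 828 ± 70.3 CPM late and 859 ± 48.8 CPM early in knockdown cells, a difference in wild type minus knockdown of -0.36 ± 0.07 (adjusted p = 0.00194). Nucleolar genes were more negative in wild type in 9 of 28, in 3 without replicate 1 and in 3 without replicate 2. Replication genes fell in 31 of 34 in knockdown cells with a median of -0.60, against 16 in wild type, where 10.5% and 8.48% of all genes fell. More positive in wild type were 23 of 34 (13 without replicate 1 and 15 without replicate 2), against 3.14% of all genes. HIST1H1E, a linker histone, had 3444, 3807 and 4654 CPM late and 3157, 3677 and 4247 CPM early in wild type, but 1273 ± 97.7 CPM late and 2173 ± 237 CPM early in knockdown cells. The wild-type windows of HIST1H1E overlapped, and its difference between states was 0.88 ± 0.11 (adjusted p = 1.67e-05). In that test 9 of 10 histones were called, with a median of 0.87. Histone genes are near-identical in parts, so reads between them are uncertain.

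Matrix genes were higher late in both states, in 17 of 25 in wild type and 16 of 24 in knockdown cells, with 4 more positive and 1 more negative in wild type by the test of the difference. Immediate early genes rose in 11 of 17 in knockdown cells and in 2 of 16 in wild type, where 10% of all genes rose in each state. The wild-type count was larger without replicate 2, as given above. In the test between states 2 of 16 were called, both more negative in wild type, against 2.13% of all genes. The unequal counts are not themselves a test of that difference. Of single well-covered genes, GABRA2 had the largest positive difference, 1.90 ± 0.34 (adjusted p = 0.000443): in knockdown cells it had 7.59 ± 1.61 CPM late and 9.64 ± 2.56 CPM early. It was followed by ZNF367 (1.33), SMOC1 (1.31), CRYL1 (1.20), KIAA1211 (1.20) and SLC43A1 (1.17). CCDC147 was the most negative, -1.81 ± 0.19 (adjusted p = 3.27e-07), with 5.99 to 9.86 CPM late and 12.7 to 23.8 CPM early in wild type but 50.0 ± 3.51 CPM late and 33.85 ± 6.25 CPM early in knockdown cells. The next were LPXN (-1.38), the imprinted gene PHLDA2 (-1.34), SERPINB7 (-1.33), LCP1 (-1.22) and CREB3L1 (-1.21), a membrane-bound transcription factor of secretory cells. LCP1 was lower late in both states, with log2 differences of -2.24 in wild type and -1.02 in knockdown cells.

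**Figure D5:**
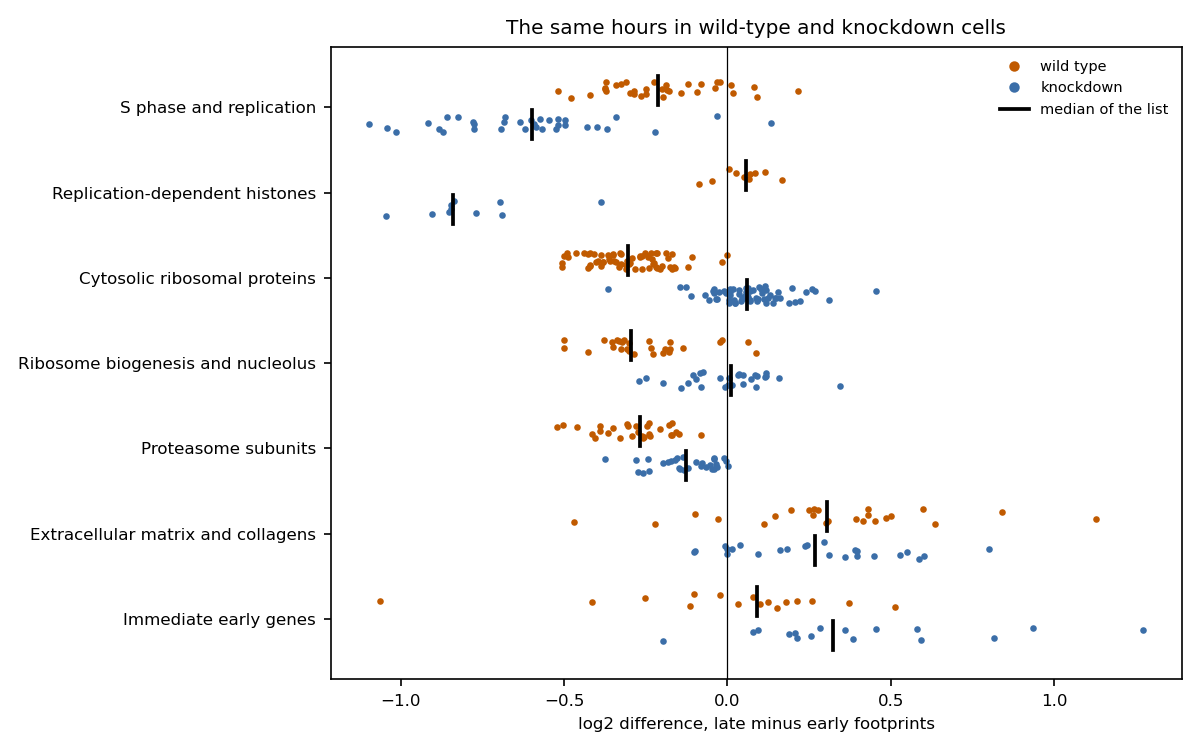
Log2 difference between late and early footprints for members of 7 gene lists tested in both cell states, wild type (orange, upper row of each pair) and knockdown (blue, lower row), with medians as black bars. Replication and histone genes lie further left in knockdown cells (histone median -0.84), ribosomal protein and nucleolar genes further left in wild type, and the matrix medians lie right of 0 in both.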

How the data were processed

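Ribosome footprints and total RNA were sequenced, and the submitters' processing notes name STAR 2.3.0e, HTSeq 0.5.4p1 and DESeq2 as tools and GRCh37 (hg19) as the genome. Strand settings are not given in the sources used here. The deposited signal values are gene counts divided by 1 factor per library: in the libraries used here all were whole multiples of that unit within 0.001 read, and whole reads were recovered from them. Late (CT18 to CT22) and early (CT00 to CT04) libraries were compared with limma 3.58.1 (R 4.3.3, robust moderated test) on log2(CPM + 0.25) after TMM scaling with edgeR 4.0.16 within each set of 24 libraries. Genes needed about 10 reads by edgeR's filter, and the Benjamini-Hochberg threshold was 0.05. Fold changes are on the log2(CPM + 0.25) scale, which understates those of rare genes. Efficiency and the wild-type against knockdown comparison are interactions in 1 model. Count tests (edgeR, DESeq2 1.42.0), other scalings, filters, pseudocounts and left-out libraries were tried. In simulated data the test of late against early wild-type footprints recovered 69.0% of 1.5-fold and 89.9% of 2-fold changes. Those data held 197 and 199 changed genes and libraries drawn independently, without replicate effects, so recovery in the real data may differ. Deviations of same-numbered wild-type footprint libraries correlated at 0.121 to 0.321 over the 15 pairs of times in the 2 windows, so replicate numbers pair those libraries. Over the 66 pairs of the whole day the range was -0.02 to 0.445, so some pairs of times were not correlated. In the windows wild-type RNA correlated at 0.314 to 0.562, while knockdown libraries, at -0.182 to 0.147, share only a number. Named genes are the largest rises and falls above a mean log2 CPM of 3, leading steady genes, up to 4 members per list by p, clock genes and the largest interaction differences. Genes lower in efficiency outside both translation lists were named after their values were seen. The members and lists were chosen with earlier results of these data known. Start sequences are from RefSeq (GRCh38.p14).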

Additional observations from a re-analysis of the deposited data

Results flagged for a closer look

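Among 248 groups of 6 libraries (124 named genes in 2 windows), 10 (4.03%) held a library far from the other 5, where chance flags about 1 in 20. The low early libraries were CT00 replicate 2 for CLOCK (45.4 CPM) and CXCL14 (5.65 CPM), CT00 replicate 1 for PER2 (2.8 CPM), and CT02 replicate 1 for GNB2L1 (1670 CPM) and VIM (7030 CPM). CT02 replicate 2, the library that stood apart, was low for IGFBP5 (8.93 CPM) and SLC43A1 (2.65 CPM). High early libraries were CT04 replicate 2 for RORA (9.26 CPM) and CT02 replicate 1 for SESN3 (45.1 CPM), and the late library CT18 replicate 2 was high for DKC1 (298 CPM).

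The late minus early difference was unequal between wild-type and knockdown footprints for 587 genes in limma's interaction test. On the log2 scale the named differences were 1.90 for GABRA2, 1.33 for ZNF367, 1.31 for SMOC1, 1.20 for CRYL1, 1.20 for KIAA1211 and 1.17 for SLC43A1. On the negative side they were -1.81 for CCDC147, -1.38 for LPXN, -1.34 for PHLDA2, -1.33 for SERPINB7, -1.22 for LCP1 and -1.21 for CREB3L1.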

How the results depend on the processing

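Of 106 named genes past the threshold in the late against early wild-type footprints, all 106 kept their sign and 86 passed it under every alternative run. Calls numbered 1371 (744 higher, 627 lower) without CT18, 1214 (662 and 552) without CT20 and 1081 (603 and 478) without CT22, against 1523 without CT00, 2094 without CT02 and 2110 without CT04. Leaving out 1 library or replicate gave 1031 to 2288 calls (513 to 1196 higher, 518 to 1096 lower). The slope over CT06 to CT16 gave 153 calls (81 and 72) with the replicate block, 1 (0 higher, 1 lower) without the read filter, 40 to 42 (22 to 29 and 11 to 20) without a replicate, 2883 (1521 and 1362) over CT00 to CT22 and 791 (450 and 341) with a 24 h wave. Efficiency gave 133 calls (25 and 108) with the replicate block, 8 higher by edgeR, and 22 to 84 (1 to 11 and 21 to 73) without a replicate or library. Wild type against knockdown gave 369 lower with the replicate block, and 241 to 526 (114 to 327 and 110 to 199) without a replicate or library. Knockdown footprints gave 579 to 2036 (242 to 1000 and 337 to 1036) without a replicate. Steady genes numbered 1631 (894 and 737) with pooled means. Signs of uncalled clock genes turned. CRY1 ranged from -0.103 without 1 library to values above 0: 0.0273 without replicate 2, 0.0169, 0.0196 and 0.00898 without CT02 replicate 1, CT04 replicate 2 or CT22 replicate 2, and 0.0327, 0.0248 and 0.0532 without CT02, CT04 or CT22. Without CT02, CRY2 was 0.0104, NR1D1 0.0356 and PER2 0.161. Without CT04, PER1 was 0.0184 and PER2 0.0168, and without CT18 NR1D1 was 0.126. The causes were not tested. Depth limits genes near 3 reads, 0.51 to 1.06 CPM late.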
